A study of Mus musculus with 6 samples.

Results

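The genes of apoptosis and necroptosis, the programmed routes of cell death, were examined in mouse tracheal epithelium after injury. The members are 37 genes chosen by name, and every probe set to which the array annotation gave exactly 1 gene symbol from that list was taken. This gave 88 probe sets of 34945 with 1 symbol, which measure 34 of 18193 genes. Bax, Ripk1 and Trp53 were not analysed here. Epithelium was compared between 3 samples taken 48 h post injury (48 hpi) and 3 control samples. All mice were adult C57Bl/6 males, 8 to 12 weeks old, and each sample was a pool of cells from the tracheas of 4 animals. Injury was by inhalation of 500 ppm SO2 for 4 h, which strips luminal cells from the airway lining and leaves basal cells to rebuild it, and control animals were uninjured. Both groups went through the same dispase separation from the mesenchyme and the same depletion of CD45+ leukocytes.

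In the mitochondrial route of apoptosis, BH3-only proteins sense damage and neutralize the anti-apoptotic members of the Bcl2 family, so that the effectors open pores in the outer mitochondrial membrane and release cytochrome c, which assembles the apoptosome with Apaf1 and activates a caspase cascade. In the receptor route, ligands of the tumour necrosis factor family recruit adaptors and an initiator caspase. When that caspase is blocked, a kinase of the same complex phosphorylates Mlkl, which ruptures the plasma membrane, a death called necroptosis. Shedding and turnover of airway epithelial cells are known to involve apoptosis, and most of its regulation is by protein cleavage and binding, which mRNA arrays do not measure.

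Values are RMA expression on the log2 scale, where a difference of 1 is a fold of 2. Changes are 48 hpi minus control with the standard error (SE) of the limma fit, group values are mean ± SD over 3 pools, and each gene is represented by its brightest probe set over all 6 arrays. A gene was called at a Benjamini-Hochberg adjusted p below 0.05 over all genes. Background, the 95th percentile of 79 probe sets of olfactory, vomeronasal and trace amine receptors, was 4.81 at 48 hpi and 4.94 in control. An exact two-sided permutation test of 3 pools against 3 cannot fall below p = 0.1. By this measure 32 of the 34 genes exceeded background in 1 group or both.

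The death machinery changed in both directions at 48 hpi. Higher were both measured necroptosis genes (Mlkl, Ripk3), the BH3-only gene Pmaip1, the effector Bak1, Apaf1 and Cycs of the apoptosome, the initiator caspases Casp8 and Casp2 and the adaptors Fadd and Tradd. Lower were the BH3-only genes Bmf, Bcl2l11, Bik and Bbc3, the receptor gene Fas, the anti-apoptotic gene Bcl2l2 and the inhibitors Birc3 and Cflar. In all, 10 members were called higher, which is 29.4% against 19.4% of all genes, and 8 were called lower, which is 23.5% against 17.5% of all genes. The other 16 were not called. The arrays of the groups did not overlap for 20 members (58.8%), against 50.4% of all genes. The median change was −0.03 over the members and −0.02 over all genes. The changes ran from 0.55 to 2.28 among the higher genes and from −0.40 to −0.89 among the lower ones. The 8 lower calls depended on the scaling, since none was made once the hybridization controls were set equal on all arrays. Under that scaling the limma adjusted p followed the size of the change almost alone.

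**Figure D1:**
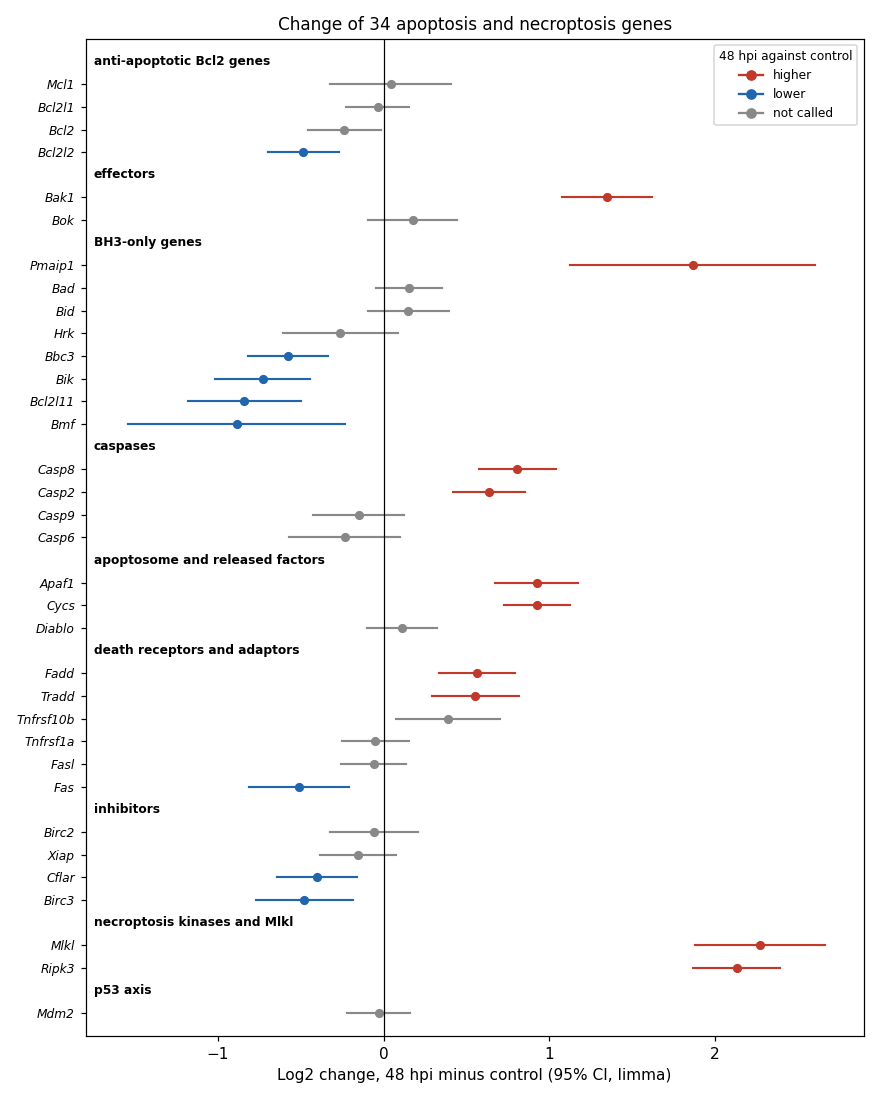
Log2 change (48 hpi minus control, horizontal axis) of the 34 measured genes, grouped by role, with points for the limma estimate and lines for its 95% confidence interval. The 10 genes called higher (red) reach 2.28 for Mlkl, the 8 called lower (blue) reach −0.89 for Bmf, and 16 (grey) were not called.

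Both measured necroptosis genes rose, each on its only probe set. Mlkl, the pseudokinase that breaches the membrane, had 6.85, 6.69 and 7.30 in the 48 hpi pools, against 4.90, 4.57 and 4.55 in the control pools. Ripk3, the kinase that phosphorylates it, had 6.89, 6.56 and 6.93 in the 48 hpi pools, against 4.61, 4.67 and 4.70 in the control pools. All 48 hpi pools of both genes lay clearly above all control pools, and both control means were within background, so that the size of the rise is a lower bound. By the 48 hpi mean over the control background level, without sampling error, Mlkl was at least 4.03-fold higher at 48 hpi. Its fitted change was 2.28 (SE 0.17, limma adjusted p = 6.19e-05). By the same measure, also without sampling error, Ripk3 was at least 3.62-fold higher. Its fitted change was 2.13 (SE 0.11, limma adjusted p = 1.02e-05).

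Myeloid and other leukocytes express both genes, and leukocyte markers were read beside them. Of 16 measured leukocyte markers 4 were above background, 0 were called higher and 2 were called lower. The lower were Csf1r and Gzma, and Gzma was within background in both groups. Markers within background have no measured change, and the part of leukocytes in the rises was not tested. Ptprc, which encodes CD45, was within background in both groups (2.83 ± 0.02 at 48 hpi and 3.04 ± 0.11 in control). The mean log2 level of the 16 markers was 4.21 to 4.27 in the 48 hpi pools and 4.26 to 4.35 in the control pools.

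Since Ripk3 and Mlkl moved together, their promoters (RefSeq, GRCm38.p6, each from 250 bases before the annotated start to 50 after it, both on the minus strand) are shown for inspection. Capitals mark the GC box GGGCGG, a binding site of Sp1 family factors.
Ripk3, chr14:55788808-55789107: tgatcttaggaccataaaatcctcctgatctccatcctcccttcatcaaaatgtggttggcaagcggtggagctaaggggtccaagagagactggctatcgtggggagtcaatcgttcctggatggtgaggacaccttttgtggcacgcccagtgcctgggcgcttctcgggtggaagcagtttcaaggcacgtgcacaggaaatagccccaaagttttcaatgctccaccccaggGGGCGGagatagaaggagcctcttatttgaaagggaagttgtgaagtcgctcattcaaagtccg
Mlkl, chr8:111338156-111338455: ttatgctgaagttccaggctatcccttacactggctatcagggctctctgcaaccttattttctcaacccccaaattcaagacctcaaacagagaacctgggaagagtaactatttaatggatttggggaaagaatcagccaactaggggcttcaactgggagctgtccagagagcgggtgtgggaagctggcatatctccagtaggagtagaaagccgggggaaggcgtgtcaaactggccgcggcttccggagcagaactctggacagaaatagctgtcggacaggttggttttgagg
Both strands were searched for the GC box, the TATA box (TATAAA), an E2F site (TTTNGCGC) and a p53 half-site. The Ripk3 window holds 1 GC box, at positions 237 to 242 from its 5′ end, and none of the other motifs, and the Mlkl window holds none of the 4. No window was found for Pmaip1, Bik, Tradd or Tnfrsf10b, and their promoters were not searched. Over all members 41 windows were found for 30 of the 34 genes, some with several overlapping start sites. A GC box lay in 65.9% of these windows and in 35.7% of 32851 mouse promoter windows of the same length. The p53 half-site lay in 4 member windows (9.76%), those of Bmf, Birc2, Fasl and Mdm2, against 8.36% of all. The E2F site lay in 1 window of Bcl2l1 (1.38% of all) and the TATA box in those of Cflar and Xiap (13.6% of all). These are matches of letters, not tested sites.

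Among the genes that act at the mitochondrial membrane, the effector and 1 BH3-only gene rose while 4 BH3-only genes fell. Bak1, which forms the membrane pore, had 8.03, 8.07 and 8.41 in the 48 hpi pools, against 6.92, 6.78 and 6.76 in the control pools. The groups were more than 1 unit apart, and the change was 1.35 (SE 0.12, a 2.55-fold rise, limma adjusted p = 0.000133). The other effector measured, Bok, a related pore-forming protein, had 8.02 ± 0.17 at 48 hpi and 7.85 ± 0.14 in control and was not called (change 0.18, 95% interval −0.09 to 0.45).

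Pmaip1 encodes Noxa, a BH3-only protein that neutralizes Mcl1 and a classical p53 target. It had 7.30, 7.40 and 7.32 in the 48 hpi pools, against 6.33, 4.84 and 5.24 in the control pools. The 48 hpi pools were nearly equal, whereas the control pools spread widely, with control replicate 1 nearest to the injured level. The change was 1.87 (SE 0.32, limma adjusted p = 0.00269), and it ranged from 1.55 without control replicate 2 to 2.30 without control replicate 1.

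The remaining BH3-only genes that were called all fell. Bcl2l11, which encodes Bim, a broad antagonist of the anti-apoptotic proteins, had 8.12, 8.43 and 8.25 in the 48 hpi pools, against 8.83, 9.14 and 9.36 in the control pools. Bik, a BH3-only protein of the endoplasmic reticulum, had 7.14, 7.18 and 6.93 in the 48 hpi pools, against 7.89, 7.58 and 7.97 in the control pools. Bbc3, which encodes Puma, another p53 target, had 6.21, 6.18 and 5.95 in the 48 hpi pools, against 6.82, 6.63 and 6.63 in the control pools. In all 3 genes every injured pool was below every control pool. The limma changes were −0.84 (SE 0.15, adjusted p = 0.00289) for Bcl2l11, −0.73 (SE 0.13, adjusted p = 0.0026) for Bik and −0.58 (SE 0.11, adjusted p = 0.00354) for Bbc3. Bmf, which is linked to the cytoskeleton and to loss of attachment, was 6.38 ± 0.49 at 48 hpi and 7.27 ± 0.46 in control (change −0.89, SE 0.29, limma adjusted p = 0.0405). Its arrays overlapped, and its call was lost under 11 of 21 alternatives, among them the probe sets not marked x or s, which left 1 that was within background in both groups, and without 48 hpi replicate 1, 48 hpi replicate 3, control replicate 2 or control replicate 3. Bid, which links the receptor route to the mitochondria, Bad, which responds to growth factor kinases, and Hrk, best known in neurons, had changes of 0.15 (SE 0.11), 0.15 (SE 0.09) and −0.26 (SE 0.15) and were not called. Pmaip1 and Bbc3, both known p53 targets, were thus called in opposite directions.

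Of the anti-apoptotic Bcl2 genes 1 of 4 fell and 0 rose on the probe set used. Bcl2l2, which encodes Bcl-w, had 7.78, 7.61 and 7.61 in the 48 hpi pools, against 8.09, 8.11 and 8.25 in the control pools. The groups did not overlap, and the change was −0.48 (SE 0.09, limma adjusted p = 0.00456). Bcl2 itself was 6.20 ± 0.10 at 48 hpi and 6.44 ± 0.10 in control, with arrays apart but a limma adjusted p of 0.0906. Bcl2l1, which encodes Bcl-xL, was 8.73 ± 0.07 at 48 hpi and 8.77 ± 0.01 in control, and the 95% interval of its change ran from −0.22 to 0.15. Mcl1, a short-lived guard of Bak1, was 11.05 ± 0.14 at 48 hpi and 11.01 ± 0.31 in control on its brightest probe set.

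**Figure D2:**
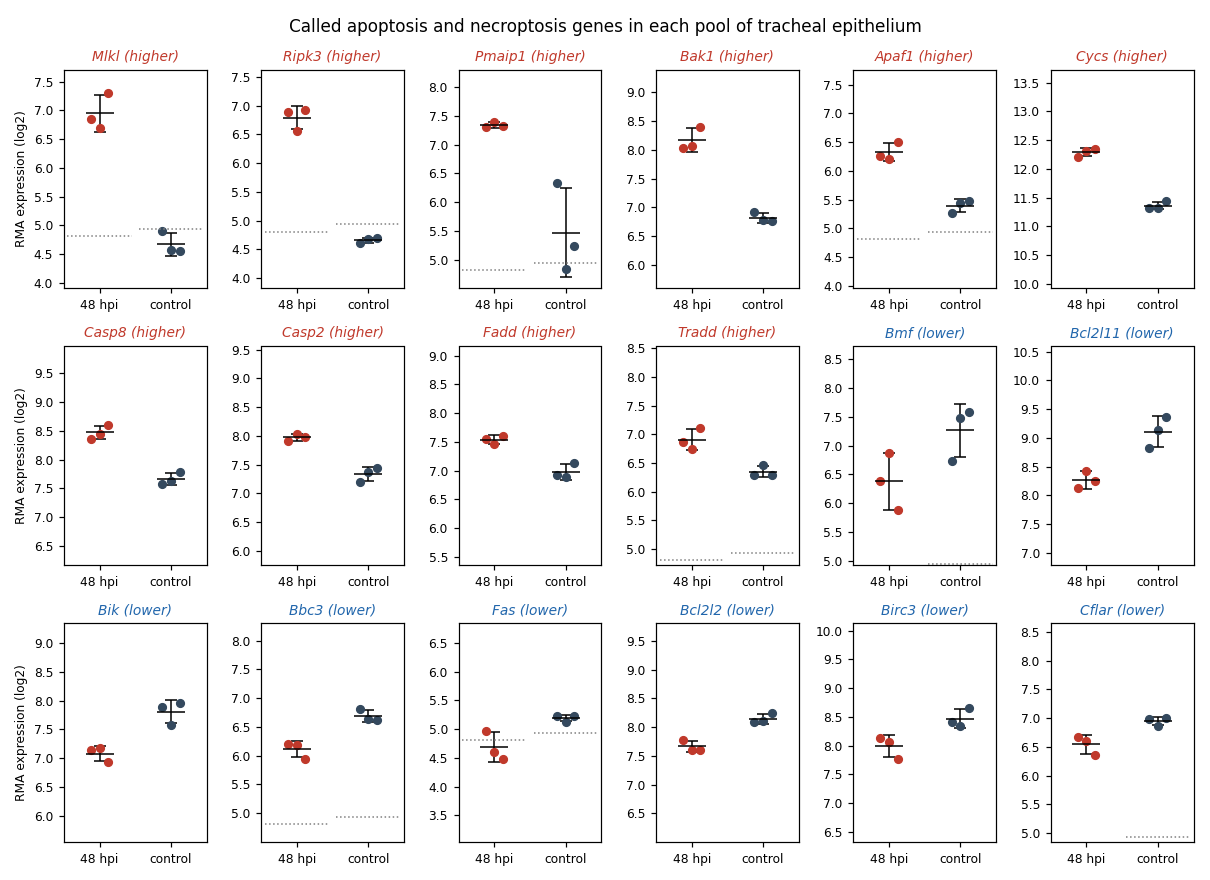
RMA expression (log2, vertical axes of equal span) of the 18 called genes in each pool, 48 hpi (red) left of control (dark), with mean and SD over 3 pools in black and the group's background level as a dotted line where it falls in range. The arrays overlap in Bmf only, and the control pools of Mlkl and Ripk3 lie below the dotted line.

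Of 3 genes of the apoptosome and of factors released with cytochrome c, 2 rose, Cycs and Apaf1. Cycs, which encodes cytochrome c, an electron carrier of respiration as well as the apoptosis trigger, had 12.21, 12.31 and 12.35 in the 48 hpi pools, against 11.33, 11.32 and 11.44 in the control pools. Apaf1, the scaffold that cytochrome c binds, had 6.26, 6.21 and 6.50 in the 48 hpi pools, against 5.27, 5.45 and 5.47 in the control pools. Neither gene overlapped between the groups, and both had a change of 0.93 (SE 0.09 and limma adjusted p = 0.000173 for Cycs, SE 0.11 and limma adjusted p = 0.000479 for Apaf1). Diablo, which is released with cytochrome c and relieves caspases of their inhibitors, was 7.57 ± 0.09 at 48 hpi and 7.46 ± 0.08 in control and was not called.

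Of the 4 caspases analysed here 2 rose and 0 fell. Casp8, the initiator of the receptor route, which also cleaves the necroptosis kinases, had 8.36, 8.45 and 8.60 in the 48 hpi pools, against 7.58, 7.63 and 7.78 in the control pools. Casp2, an initiator activated after DNA damage and mitotic error, had 7.91, 8.03 and 7.99 in the 48 hpi pools, against 7.20, 7.37 and 7.44 in the control pools. Every injured pool exceeded every control pool in both genes. The change was 0.81 (SE 0.10, limma adjusted p = 0.000612) for Casp8 and 0.64 (SE 0.09, limma adjusted p = 0.00131) for Casp2. Casp9, the initiator bound by the apoptosome, had a change of −0.15 (SE 0.12), and Casp6, an executioner, of −0.24 (SE 0.15), neither of them called. Casp6 was called lower without 48 hpi replicate 1 (limma adjusted p = 0.0441).

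In the receptor route both adaptors rose, 1 receptor gene fell and the other 3 genes were not called. Fadd, which joins death receptors to Casp8, had 7.55, 7.47 and 7.61 in the 48 hpi pools, against 6.92, 6.88 and 7.13 in the control pools. Tradd, the adaptor of tumour necrosis factor receptor 1, had 6.86, 6.75 and 7.11 in the 48 hpi pools, against 6.30, 6.46 and 6.29 in the control pools. The groups were apart in both, with changes of 0.56 (SE 0.10, limma adjusted p = 0.00286) for Fadd and 0.55 (SE 0.11, limma adjusted p = 0.00614) for Tradd. Fas, the death receptor, had 4.97, 4.60 and 4.48 in the 48 hpi pools, against 5.22, 5.13 and 5.24 in the control pools. The pools did not overlap, but the 48 hpi mean was within background and the control mean not far above it. By the control mean over the background level, without sampling error, Fas was at least 1.31-fold lower. The fitted change was −0.51 (SE 0.13, 95% interval −0.82 to −0.21, limma adjusted p = 0.0166). That call was lost without 48 hpi replicate 2 and without control replicate 3. Tnfrsf1a, the main receptor for tumour necrosis factor, was 8.48 ± 0.07 at 48 hpi and 8.53 ± 0.08 in control, and the 95% interval of its change ran from −0.25 to 0.15. Fasl, the ligand of Fas, and Tnfrsf10b, the mouse receptor for TRAIL, were within background in both groups, and Tnfrsf10b, not called here (limma adjusted p = 0.0569), was called higher under 6 of 20 alternatives, among them without 48 hpi replicate 2 (limma adjusted p = 0.0187) and with equal hybridization controls (limma adjusted p = 0.00761).

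Among the inhibitors 2 of 4 fell and 0 rose. Birc3, a ubiquitin ligase that restrains the receptor complex, had 8.14, 8.06 and 7.77 in the 48 hpi pools, against 8.40, 8.35 and 8.65 in the control pools. Cflar, which encodes the Casp8 decoy c-FLIP, had 6.68, 6.60 and 6.36 in the 48 hpi pools, against 6.98, 6.87 and 6.99 in the control pools. The groups were apart in both genes, by a narrow margin. The limma change was −0.48 (SE 0.13, adjusted p = 0.0192) for Birc3 and −0.40 (SE 0.11, adjusted p = 0.0181) for Cflar. Both calls were lost without control replicate 3, and that of Cflar also without control replicate 1. Birc2, the close relative of Birc3, had a change of −0.06 (SE 0.12), and Xiap, the direct caspase inhibitor, of −0.15 (SE 0.10), neither called. Of the p53 axis Mdm2, the ubiquitin ligase of p53 and a target of it, was 8.65 ± 0.01 at 48 hpi and 8.68 ± 0.07 in control (change −0.03, SE 0.08).

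Most members are measured by several probe sets, and these did not always move together. Of the called genes, Mlkl, Ripk3, Pmaip1, Casp8, Casp2, Bbc3 and Fas have only 1 probe set each. Their calls could not be compared within the gene. Of the 88 probe sets 63 were above background in at least 1 group, 16 (18.2%) were called higher, against 17.7% of all probe sets, and 16 (18.2%) lower, against 15.2% of all. Of the 24 genes that have several probe sets, 8 were called on their brightest probe set while at least 1 other was not called (Bcl2l2, Bcl2l11, Bmf, Apaf1, Fadd, Tradd, Birc3 and Cflar). The uncalled probe sets of Apaf1, Tradd and Birc3 were within background in both groups. Uncalled probe sets above background had changes of 0.05 for Fadd, −0.25 for Bmf and −0.10 and 0.23 for Bcl2l2. Bak1 and Bik were called the same way on all of theirs. Which transcript forms the probe sets detect was not tested.

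Within some genes the probe sets were called differently. The brightest probe set of Mcl1 had a change of 0.04 (SE 0.16), while 4 of its other 5 were called lower, with changes between −0.51 and −0.58, and the fifth had a change of 0.44 (SE 0.17) and was not called. For Cycs, 3 probe sets were called higher, with changes of 0.93, 1.04 and 1.31, and the fourth was called lower (fitted change −0.57, SE 0.10) but lay within background in both groups, so that it has no measured change. A second probe set of Bcl2, near background, was called lower (−0.62, SE 0.10), 1 of 7 of Xiap was called higher (0.37, SE 0.10), and 1 of Tnfrsf10b, within background, was called higher (0.45, SE 0.13). The other probe sets of Bcl2l11 that were above background had changes of −0.33, −0.27 and −0.39 and missed the threshold. Those of Cflar that were above background lay between −0.19 and −0.01. With the mean of a gene's probe sets in place of the brightest, Bcl2l2 (−0.13) and Cflar (−0.11) lost their call.

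**Figure D3:**
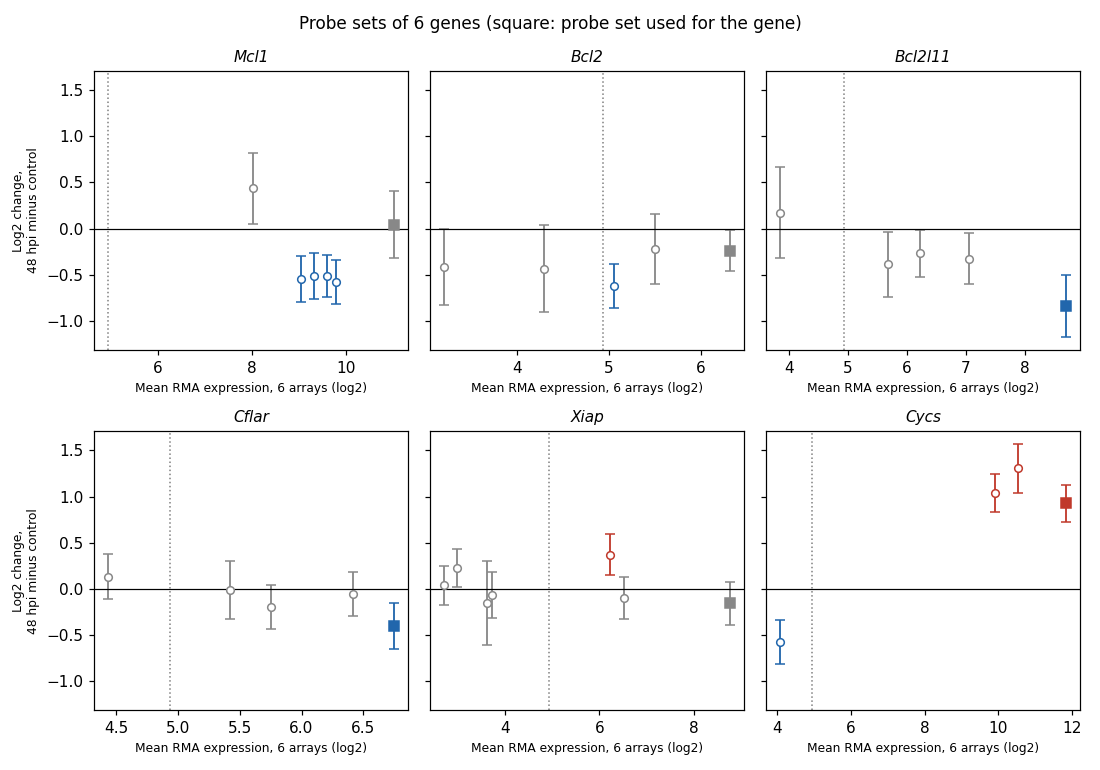
Log2 change (48 hpi minus control, with 95% limma confidence interval) of each probe set of 6 genes against its mean RMA expression over 6 arrays, with the probe set used for the gene as a filled square, calls in red (higher) and blue (lower), and the control background level dotted. Of the 6 probe sets of Mcl1 4 lie between −0.51 and −0.58 while the brightest lies at 0.04, and of Cycs only the one within background lies below 0.

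The balance of rises and falls moved with the scaling of the arrays. With equal hybridization controls the median change of all genes was 0.32, 11 members were called higher and 0 lower. The 8 genes called lower then had changes from −0.54 to −0.06, all still below 0. Relative to the median of all genes they lay between −0.87 and −0.38. The limma adjusted p was then nearly the same at a given size of change, 0.0901 for Bad (0.50) and 0.0912 for Bcl2l11 (−0.50). Size alone did not set the calls across scalings. Cflar at −0.40 was called with the values as deposited (limma adjusted p = 0.0181). Bmf at −0.54 was not called under equal hybridization controls (limma adjusted p = 0.0605). Why the lower calls were lost was not tested. The 10 genes called higher had changes from 0.90 to 2.62 under that scaling and kept their call. With a common median the counts were 11 higher and 6 lower, and Bmf and Cflar lost their call.

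**Figure D4:**
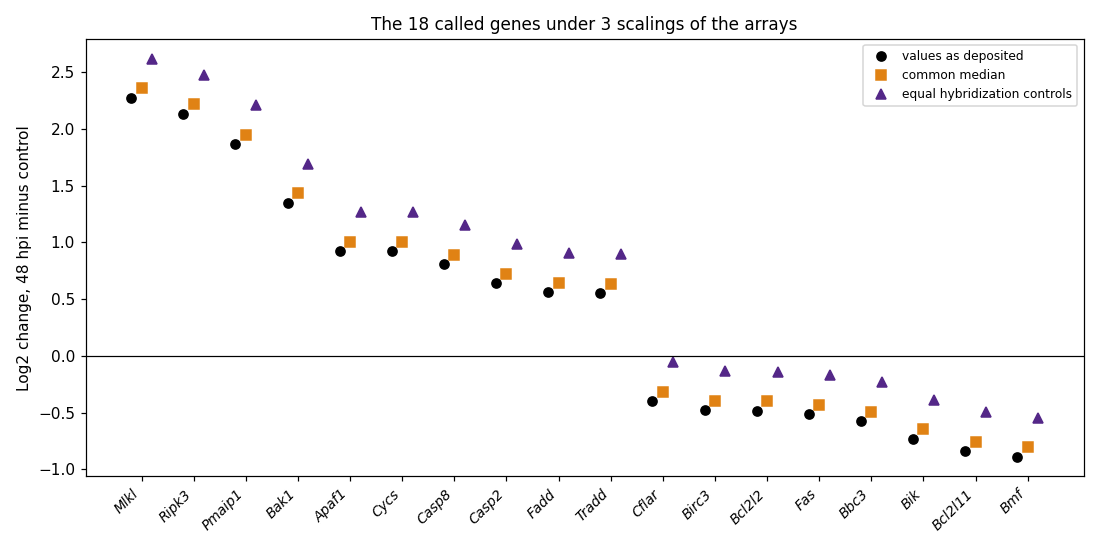
Log2 change (48 hpi minus control, vertical axis) of the 18 called genes with the values as deposited (circles), with the arrays shifted to a common median (squares) and with the arrays shifted to equal hybridization controls (triangles). The 10 higher genes stay between 0.55 and 2.62, and the 8 lower genes stay below 0 but come as close as −0.06.

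Further genes of the same pathways, from lists set by name, were read in the same fit. Of 8 nuclear and mitochondrial execution genes 5 were higher and 0 lower, with a median change of 0.51. Among these were Aifm1, a mitochondrial flavoprotein that can enter the nucleus (0.69, SE 0.09), Parp1, a DNA damage sensor cleaved in apoptosis (0.77, SE 0.12), Htra2, a mitochondrial protease (0.73, SE 0.13), and Dffb, the nuclease that fragments DNA (0.52, SE 0.10). Of 10 pyroptosis genes 2 were higher and 0 lower (median −0.12), namely Gsdme, a pore-forming gasdermin (1.29, SE 0.15), and Pycard, the inflammasome adaptor ASC (0.79, SE 0.10). Of 14 p53 target genes 2 were higher and 2 lower (median −0.02). Aen, a nuclease (0.87, SE 0.16), and Phlda3, a repressor of Akt (0.52, SE 0.11), rose. Btg2, an antiproliferative gene (−1.34, SE 0.16), and Rrm2b, a ribonucleotide reductase subunit (−0.46, SE 0.11), fell. Cdkn1a, the cell cycle inhibitor p21, was 9.59 ± 0.32 at 48 hpi and 9.60 ± 0.24 in control.

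The other lists also held calls in both directions. Of 19 genes of the tumour necrosis factor receptor complex and its ligands 1 was higher and 4 were lower (median −0.14). Of the lower genes Tnf was within background in both groups. Traf2, an adaptor that carries Birc2 and Birc3 (0.47, SE 0.11), rose. Ikbkg, which encodes the NF-kB regulator NEMO (−1.23, SE 0.10), and Tnfrsf21, death receptor 6 (−0.55, SE 0.12), fell, and Tnfsf10, which encodes TRAIL, was 4.68 ± 0.28 at 48 hpi, within background, and 5.24 ± 0.24 in control. Of 6 other inhibitor of apoptosis genes 1 was higher, Birc5 or survivin (3.91, SE 0.11), which also acts in mitosis, and 1 was lower, Xaf1, an antagonist of Xiap (−0.84, SE 0.21). Of 6 other Bcl2 family genes 1 was higher, Bcl2l15, at 4.83 ± 0.66 at 48 hpi and 3.87 ± 0.34 in control, where it was within background. Of its injured pools only 48 hpi replicate 3 (5.59) exceeded the background level, and the others had 4.44 and 4.45. The 1 gene of this list that was lower was Bnip3, a mitochondrial protein of hypoxia and mitophagy (−1.61, SE 0.25). Over all genes the median was −0.02.

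Levels of cell type markers differed between the groups. All 10 epithelial and basal cell markers were above background in both groups, 4 were higher and 2 lower (mean log2 level 11.08 to 11.11 in the 48 hpi pools and 10.68 to 10.82 in the control pools). The higher were the keratin genes Krt14 (3.18, SE 0.34), Krt5 (0.69, SE 0.11) and Krt8 (0.43, SE 0.09) and the adhesion gene Epcam (0.28, SE 0.09), and the lower were Ngfr (−0.66, SE 0.14) and Pdpn (−0.35, SE 0.10). Proliferation genes were higher in 9 of 9 measured, with a mean log2 level of 9.94 to 10.28 in the 48 hpi pools and 7.05 to 7.09 in the control pools. Ciliated cell markers were lower in 9 of 10 (5.47 to 6.15 at 48 hpi and 6.45 to 7.26 in control) and secretory cell markers in 8 of 10 (11.93 to 13.02 at 48 hpi and 13.66 to 13.75 in control), with 0 higher in either list. Of the lower ciliated cell markers Dnah5 was within background in both groups. Fibroblast and cartilage markers were higher in 0 and lower in 1 of 12 (4.64 to 5.01 at 48 hpi and 4.67 to 4.78 in control), and 0 of 7 endothelial markers were called (3.59 to 3.66 at 48 hpi and 3.59 to 3.73 in control). In pooled tissue fewer cells of a type and less RNA per cell cannot be told apart, and the part of these shifts in the changes of the members was not tested. Arrays correlated at 0.990 to 0.996 within a group and at 0.954 to 0.973 between groups.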

How the data were processed

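The authors hybridized amplified RNA (MessageAmp Premier) to Affymetrix mouse arrays and applied robust multi-chip analysis (RMA), for which Partek 6.5 is given and, in the submitters' processing notes, Expression Console 1.1 too. Deposited were log2 values, from 2.01 to 14.6, with array medians of 4.89 to 4.99 and without detection calls. RMA equalizes the arrays' distributions, so a shift of most transcripts one way would be hidden. Of 45101 probe sets 34958 have 1 gene symbol in the array annotation, and 34945 were used after control probe sets were left out. The symbols of the 34 member genes matched RefSeq by Entrez ID. The mesenchymal arrays, and with them the study's two-way ANOVA across tissues, were left out.

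The brightest probe set per gene, over all 6 arrays whatever the group, was kept (18193 genes), and 48 hpi was compared with control by limma 3.58.1 (lmFit and eBayes, no block) in R 4.3.3, with Benjamini-Hochberg adjustment over all genes. All probe sets were also fitted together. The script was tested on simulated data. Figures come from matplotlib 3.10.9 (Python 3.11.15). All member genes are named, with the value of each array for those called, apart between groups and above background in at least 1 group. Of each other pathway list at most 4 called genes with the smallest p are named. Beside them Tnf is named, and Cdkn1a, which was not called. The members and lists were chosen with earlier results of these data known. Alternatives covered eBayes settings, an unpaired t-test, scaling, a filter on dim probe sets and the choice of probe set. They also covered array weights, the replicate block, each array left out and stricter thresholds. The paper gives the unpaired t-test as its general test, but an ANOVA for the arrays. The 3 arrays per group limit the precision.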

Additional observations from a re-analysis of the deposited data

How the results depend on the processing

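All 10 higher genes kept their call and direction under every alternative, apart from a required change of at least 1 and the adjusted t-test. With that t-test Pmaip1 was lost (9 higher). Requiring a change of at least 1 left 4 higher and 0 lower genes. The count of lower genes was 8 with the values as deposited and 0 with equal hybridization controls. It was 4 with the t-test after adjustment and 4 at a limma adjusted p below 0.01. Leaving out 1 array gave 10 to 11 higher and 4 to 8 lower genes, and the 4 lower came without control replicate 3, where Bmf, Fas, Birc3 and Cflar lost their call. For probe sets, equal hybridization controls gave 19 higher and 0 lower, against 16 and 16 as deposited. Leaving out 1 array gave 14 to 17 higher and 12 to 18 lower probe sets. Over all genes, equal hybridization controls gave 4409 higher and 837 lower, against 3527 and 3191. Across the 34 genes and their alternatives, 0 of 712 values reversed a called direction, 46 lost a call and 9 gained one. Many of the 712 could not reverse, since they came from genes not called or from alternatives that keep the fitted change. Of the 16 genes that were not called, Bcl2 was called with the mean of probe sets and with the t-test without adjustment. Casp6 was called without 48 hpi replicate 1. Tnfrsf10b, within background, was called under 6. These were repeated quantile normalization, a common median, equal hybridization controls, the mean of probe sets, the replicate block and without 48 hpi replicate 2. Samples share a replicate number between the groups. The deviations of same-numbered arrays correlated at 0.10, 0.22 and 0.036, and those of different-numbered arrays at −0.20 to 0.051. No label says that the numbers mark pairs, so they were not taken as pairs. With the replicate block 11 genes were higher and 8 lower, with 0 calls lost and Tnfrsf10b gained, and 18 probe sets were higher and 18 lower. Causes of these shifts were not tested. Without detection calls, genes near background have only bounds.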

Other observations

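The injured pool with the largest departure from control was mostly the same one. Among the 10 genes called higher, 48 hpi replicate 3 had the highest value of the 3 injured pools for 8 (Bak1, Casp8, Apaf1, Cycs, Fadd, Tradd, Ripk3 and Mlkl), and among the 8 called lower it had the lowest value for 7, all but Bcl2l11. Its mean level of secretory cell markers was also the lowest of the 3 (11.93), where the highest injured pool had 13.02. Over all probe sets 48 hpi replicate 3 correlated at 0.990 and 0.992 with the other injured pools, which correlated at 0.996 with each other. How many of all genes had their extreme value in it was not counted. Without 48 hpi replicate 3 the counts were 10 higher and 7 lower, with Bmf lost. Mlkl then had a change of 2.10, Ripk3 of 2.07 and Bak1 of 1.23.

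On the control side, control replicate 3 had the highest value of the 3 control pools for 7 of the 8 genes called lower, all but Bbc3. It also had the highest control value for 6 of the 10 genes called higher (Casp2, Casp8, Apaf1, Cycs, Fadd and Ripk3), where it lay nearest to the injured pools. These patterns were noticed after the values were seen and were not tested.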
